A study of Mus musculus with 16 samples.

Results

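The livers of 16 mice were split by their level of Arntl, which encodes BMAL1, the transcription factor that with CLOCK drives the circadian clock. Arntl is read here by its brightest probe, by mean level. The sides were chosen by the measured level of this probe. Within each inoculation group, mice above the group's mean of Arntl form the high-Arntl side and the others the low-Arntl side. All 16 of the 16 livers of the series were used, 8 on each side. The sides are not a treatment, they were made from the same arrays that are compared below, and the level of Arntl itself is therefore given as a description with no test.

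The recipients were conventional male C57BL/6 mice, 6 weeks old at the start, fed normal chow for 4 weeks and labelled as 10 weeks old. They were gavaged with reduced PBS (Conv + PBS, 6 mice), with caecal content of lean donors (Conv + LM, 5 mice) or with caecal content of donors made obese by a high-fat diet (Conv + OM(HFD), 5 mice), and each inoculum was pooled from donors. All mice were kept under an inverted light cycle and were fasted before death. The time of death of each mouse is not given in the sources used here. Nothing in them says whether cage mates share a side, and p-values measure the spread between these mice.

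In the clock, BMAL1 and CLOCK switch on genes with E-box sites, among them the Period and Cryptochrome genes, Nr1d1 and Dbp. The Period and Cryptochrome proteins then repress BMAL1 and CLOCK, while REV-ERBα, the product of Nr1d1, represses Arntl and the ROR proteins activate it. In liver Arntl and Dbp are known to peak at opposite times of the day, and feeding, fasting, glucocorticoids and body temperature all reach the clock and its outputs.

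The sequence that made the split is a probe of 60 bases at chr7:120456978-120457037 of mm9, shown because the whole split rests on it.

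Arntl probe: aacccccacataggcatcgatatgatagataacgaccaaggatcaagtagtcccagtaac

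Promoter windows of clock genes and of a heat shock gene described below are shown because the clock and heat shock factors are known to act through short motifs. Each window spans a transcription start, mostly upstream of it, on the strand of the gene, and is taken from RefSeq on GRCm38.p6. Capitals mark AGGTCA, the core that ROR and REV-ERB proteins read, in Arntl and Nfil3, the E-box CACGTG in Cry1, and the heat shock element in Hsph1, each on either strand. The windows lie at chr7:113207261-113207560 (+), chr13:52980990-52981289 (-), chr10:85185005-85185304 (-) and chr5:149636266-149636565 (-). Another window of Arntl, at chr7:113207215-113207514 (+), held no AGGTCA and is not shown.

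Arntl: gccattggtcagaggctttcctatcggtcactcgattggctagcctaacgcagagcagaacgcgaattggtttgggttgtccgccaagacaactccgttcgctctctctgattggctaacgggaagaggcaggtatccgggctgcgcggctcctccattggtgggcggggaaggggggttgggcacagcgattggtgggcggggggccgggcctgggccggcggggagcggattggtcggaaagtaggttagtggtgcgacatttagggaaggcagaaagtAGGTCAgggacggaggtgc

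Nfil3: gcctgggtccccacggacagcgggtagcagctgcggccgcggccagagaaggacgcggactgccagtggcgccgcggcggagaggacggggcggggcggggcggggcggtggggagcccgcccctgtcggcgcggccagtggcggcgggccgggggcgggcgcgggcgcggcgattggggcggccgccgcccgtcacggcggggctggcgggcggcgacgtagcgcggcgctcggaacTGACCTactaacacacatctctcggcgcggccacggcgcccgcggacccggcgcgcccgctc

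Cry1: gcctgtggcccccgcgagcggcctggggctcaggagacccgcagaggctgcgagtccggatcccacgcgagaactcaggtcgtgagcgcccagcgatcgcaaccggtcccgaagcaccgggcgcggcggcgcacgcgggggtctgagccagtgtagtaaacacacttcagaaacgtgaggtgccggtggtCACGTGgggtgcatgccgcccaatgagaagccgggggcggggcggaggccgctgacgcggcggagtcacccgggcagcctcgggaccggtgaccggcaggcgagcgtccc

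Hsph1: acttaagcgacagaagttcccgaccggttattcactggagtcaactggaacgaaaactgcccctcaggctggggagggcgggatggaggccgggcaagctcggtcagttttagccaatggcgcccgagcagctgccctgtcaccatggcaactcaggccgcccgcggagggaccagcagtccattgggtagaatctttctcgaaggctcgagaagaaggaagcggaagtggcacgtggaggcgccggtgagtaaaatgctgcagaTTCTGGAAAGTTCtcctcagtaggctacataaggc

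Over all 32851 windows of the table, 16.3% held AGGTCA, 7.15% held CACGTG and 0.603% held the heat shock element. Of 10 repressor genes of the clock with a window, 3 held an E-box, and of 11 heat shock genes with a window, 3 held the heat shock element, of which Hspd1 and Hspe1 share 1 stretch read on opposite strands. A gene counts here if any of its windows holds the motif, and some genes have several windows. The shares above are per window, so the units differ. The window of Dbp held none of these motifs. A match or its absence says only which letters these windows hold.

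On the log2 scale relative to the 75th percentile of its array, Arntl was -2.78, -2.89 and -1.85 in Conv + PBS mice 1, 2 and 3 and -1.14, -1.26 and -0.35 in mice 4, 5 and 6. In Conv + LM mice it was -3.28 and -1.81 in mice 13 and 14 and -1.17, -1.45 and -0.24 in mice 15, 16 and 17. In Conv + OM(HFD) mice it was -2.83, -1.69 and -1.63 in mice 25, 26 and 28 and -1.12 and 0.18 in mice 29 and 30. The spread within a group was thus 5.79-fold, 8.23-fold and 8.06-fold from lowest to highest, around group means of -1.71 ± 0.99 (SD, n = 6), -1.59 ± 1.11 (SD, n = 5) and -1.42 ± 1.09 (SD, n = 5).

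**Figure D1:**
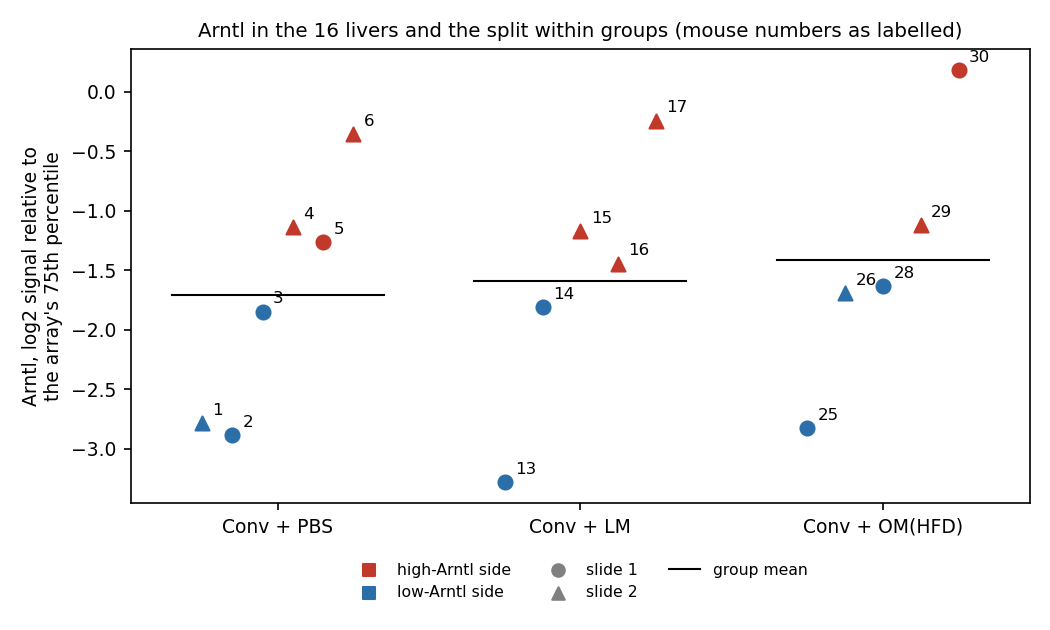
Arntl in each liver (y axis, log2 signal relative to the array's 75th percentile) by inoculation group (x axis), with mouse numbers as labelled, colour for the side, symbol shape for the slide and a line at each group mean. Arntl runs from -3.28 to 0.18 over all mice, and the mice of the high side carry the higher numbers of their group.

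The mice nearest to the division were Conv + PBS mouse 3, 0.14 below its group's mean, and Conv + LM mouse 16, 0.15 above it. In each group every high-side mouse has a higher number than every low-side mouse, with mouse 4 as the lowest number on the high side of Conv + PBS, 15 of Conv + LM and 29 of Conv + OM(HFD). What the numbers stand for is not given in the sources used here. Of the other 2 Arntl probes, 1 was well above background on 14 arrays and 1 on 11. Split by the mean of the 3 probes, Conv + PBS mouse 3 and Conv + LM mouse 16 would change sides.

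The sides were unequally spread over the slides, with 6 low-side and 2 high-side mice on slide 1 and 2 low-side and 6 high-side mice on slide 2. The 75th percentile of brightness was 238 to 324 on the low side and 223 to 311 on the high side, and 49.7 to 58.3% and 49.7 to 55.6% of probes were well above background. Low-side Conv + PBS mouse 1 and Conv + OM(HFD) mouse 25 stood apart, with neutrophil markers summing to 23.0 and 23.2 times the 75th percentile, against 1.70 to 2.66 in the other 14 mice. Both are taken up beside the gene lists.

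Between the sides, with the group as a term, limma gave 228 genes higher on the high-Arntl side (1.12% of 20399 tested) and 184 lower (0.902%) at a Benjamini-Hochberg adjusted p under 0.05. The smallest adjusted p was 0.0255, so these calls lie close to the threshold, and the median size of the called differences was 0.56 on the log2 scale. At an unadjusted limma p under 0.05, 2257 genes were higher (11.1%) and 1719 lower (8.43%). With the slide as a block, limma left 1 gene higher, Tacc2, and 2 lower, Bid and Gm8221, at the adjusted threshold, of which Bid and Gm8221 were named after their values were seen. At the unadjusted threshold that fit still gave 1675 higher (8.21%) and 1448 lower (7.1%), and all 412 called genes had an unadjusted p under 0.05 in it. No call was left in limma when Conv + PBS mouse 2 or 6, Conv + LM mouse 13 or Conv + OM(HFD) mouse 30 was left out, or without mice 1 and 25 together, where 1791 genes were higher and 1560 lower at an unadjusted p under 0.05. The calls higher and lower numbered 93 and 88 without Conv + PBS mouse 1, 68 and 68 without mouse 4 and 91 and 55 without mouse 5. They numbered 34 and 18 without Conv + LM mouse 17, and 25 and 17, 25 and 14, 269 and 285, and 8 and 8 without Conv + OM(HFD) mice 25, 26, 28 and 29. With the slide as a block, the limma adjusted p of the called genes named below ran from 0.0488 for Tacc2 to 0.13 for Cyp4a14, with the same sign. With probes well above background on all arrays alone, 309 genes were called higher and 249 lower. These counts were 0 and 1 with no filter on dim probes, 0 and 0 with no term for the group, and 7 and 2 with sides from the mean of the Arntl probes.

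With the deviation of Arntl entered as a number in place of the sides, limma called 920 genes that rose with Arntl (4.51%) and 796 that fell (3.9%), including 357 of the 412. With the slide as a block as well, a setting chosen after seeing the data, 635 rose and 545 fell. No gene had an adjusted p under 0.05 for a side difference that depended on the group in limma, and 468 (2.29%) had an unadjusted p under 0.05.

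Of 7 clock genes listed with the Arntl side of the cycle, 6 were tested, and 3 of these were called higher and 0 lower, with a median difference of 0.36 against 0.03 over all genes, of which 1.12% were called higher. At an unadjusted p under 0.05, 4 were higher and 1 lower with the slide as a block, and without mice 1 and 25 these numbers were 3 and 1. Of all genes 8.21% were higher and 7.1% lower at that p with the slide as a block. Clock, the partner of BMAL1, ranged from 0.95 to 1.45 on the low side (median 1.25) and from 1.11 to 2.19 on the high side (median 1.70). The ranges of the sides overlapped, while within Conv + LM and within Conv + OM(HFD) every high-side mouse lay above every low-side mouse. The difference was 0.48 on the log2 scale with a standard error of 0.11, or 1.4-fold (limma adjusted p = 0.0423, exact two-sided permutation p = 0.002), and its 3 probes differed by 0.48 to 0.53.

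Nfil3 encodes the repressor E4BP4, which binds the same D-box sites as DBP. It ranged from 1.70 to 3.22 on the low side (median 2.35) and from 2.47 to 3.68 on the high side (median 3.22). Only in Conv + LM mice did every high-side mouse lie above every low-side mouse. The difference was 0.90 with a standard error of 0.21, or 1.87-fold (limma adjusted p = 0.0401, exact permutation p = 0.003).

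Cry1, a Cryptochrome repressor, ranged from -2.86 to -2.14 on the low side (median -2.41) and from -2.24 to -1.12 on the high side (median -1.82). In all 3 groups the high-side mice lay above the low-side mice. Its difference was 0.75 with a standard error of 0.15, or 1.69-fold (limma adjusted p = 0.0351, exact permutation p = 0.0005), and it was 0.94 within Conv + PBS, 0.51 within Conv + LM and 0.78 within Conv + OM(HFD). After normexp background correction the Cry1 difference was 0.49 (limma adjusted p = 0.0191). An exact p of 0.0005 is the smallest that the 2000 assignments of sides within groups allow, and 66 genes were tested this way without adjustment.

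Rora, a nuclear receptor that activates Arntl, differed by 0.24 (95% confidence interval 0.04 to 0.43, limma adjusted p = 0.168). Arntl2, the paralogue of Arntl, had a difference of opposite sign, -0.35 (-0.64 to -0.07, adjusted p = 0.167). Npas2, which can stand in for Clock, was well above background on 0 of 16 arrays, and its difference could not be read.

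**Figure D2:**
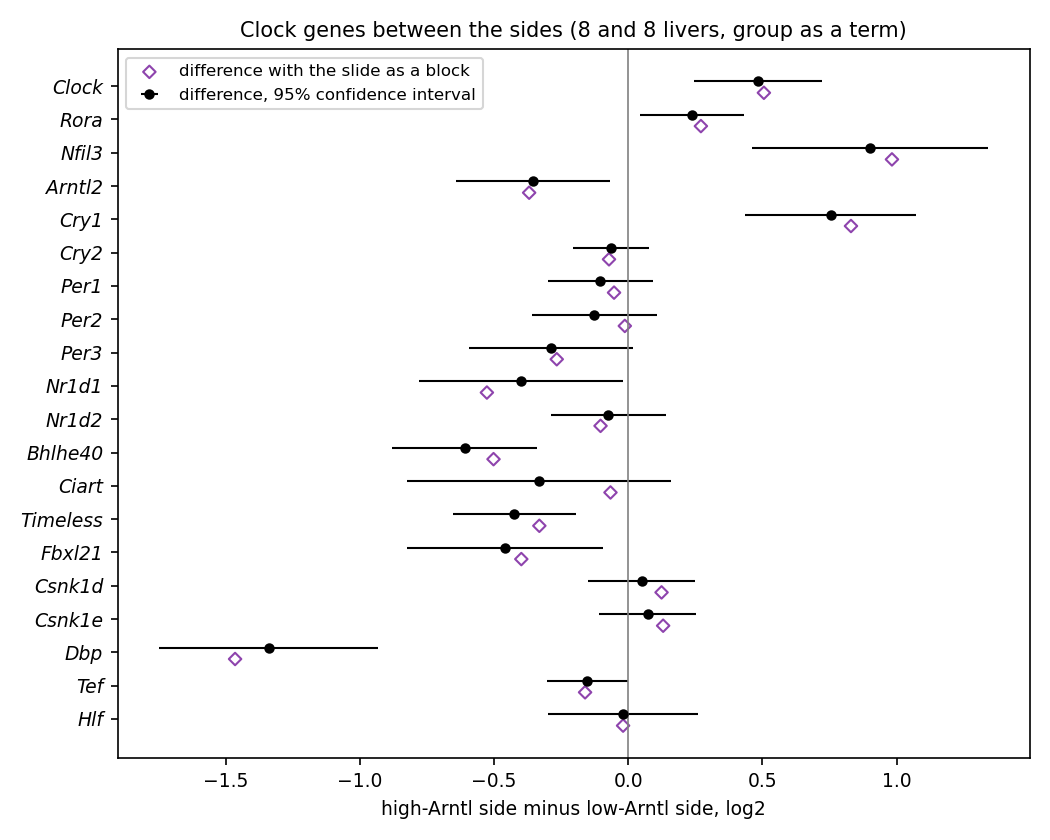
Difference between the sides (x axis, log2, high-Arntl minus low-Arntl) for the tested clock genes reported here, with the 95% confidence interval of the limma fit as bars and the value with the slide as a block as open diamonds. Dbp lies farthest below 0, Nfil3, Cry1 and Clock lie farthest above it, and the interval crosses 0 for the Period and casein kinase genes.

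Among 13 repressors and modifiers tested, 1 was called lower, against 0.902% of all genes, and 0 higher, with a median difference of -0.13. Bhlhe40 encodes DEC1, a repressor of E-box genes. It ranged from 2.21 to 3.19 on the low side (median 2.59) and from 1.62 to 2.37 on the high side (median 2.23). Its difference was -0.61 with a standard error of 0.13, or 1.53-fold lower (limma adjusted p = 0.0351, exact permutation p = 0.001). Within slides 1 and 2 it was -0.41 and -0.50.

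Nr1d1 ranged from -1.71 to -0.92 on the low side (median -1.42) and from -2.62 to -1.12 on the high side (median -1.75). The sides overlapped widely in Conv + PBS mice, where the difference was -0.10, and were apart in Conv + OM(HFD) mice, where it was -0.88. Over all groups the difference was -0.40 (-0.78 to -0.02, limma adjusted p = 0.233, exact permutation p = 0.05), and the dependence on group was not called (limma unadjusted p = 0.188). Without Conv + OM(HFD) mouse 30 the Nr1d1 difference was -0.25. Its paralogue Nr1d2 differed by -0.07 (-0.29 to 0.14), and by -0.15 and -0.37 on its other probes.

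The Period genes, the main negative arm of the clock, held no called member as read by their brightest probes. Per1 differed by -0.10 (-0.30 to 0.09), Per2 by -0.13 (-0.36 to 0.11) and Per3 by -0.29 (-0.59 to 0.02). With the slide as a block these differences were -0.05, -0.01 and -0.27. For Per3 the other probes differed by -0.79 and -0.68, so the probe with the highest mean gave the smallest value. The mean of the probes gave a Per3 difference of -0.59, which was called (limma adjusted p = 0.0383). Cry2 differed by -0.07 (-0.21 to 0.08), and the casein kinases Csnk1d and Csnk1e differed by 0.05 and 0.07. Timeless was close to the threshold at -0.42 (limma adjusted p = 0.0561), Fbxl21 differed by -0.46 (0.16) and Ciart by -0.33 (0.444), with adjusted p in parentheses. Fbxl21 was well above background in 5 high-side and 6 low-side mice. After normexp background correction the Fbxl21 difference was -0.05, and Ciart differed by -0.07 with the slide as a block.

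Dbp was the called member of the PAR bZIP list, in which 1 of 3 genes was lower and 0 higher, against 0.902% and 1.12% of all genes. It encodes a transcription factor of the PAR bZIP family that drives D-box genes, and it is read on chromosome 7 of mm9 from 52965265 to 52965324. It ranged from 5.26 to 6.17 on the low side (median 5.75) and from 3.66 to 5.11 on the high side (median 4.39). The sides did not overlap over all 16 mice, and the difference was -1.34 with a standard error of 0.19, or 2.53-fold lower (limma adjusted p = 0.0255, exact permutation p = 0.0005). It was -1.40, -1.08 and -1.52 within the 3 groups, -1.66 and -1.35 within slides 1 and 2, and -1.47 with the slide as a block (adjusted p = 0.0565). Its second probe differed by -1.12. The other members of the family had differences of -0.15 for Tef (adjusted p = 0.255) and -0.02 for Hlf (0.953).

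**Figure D3:**
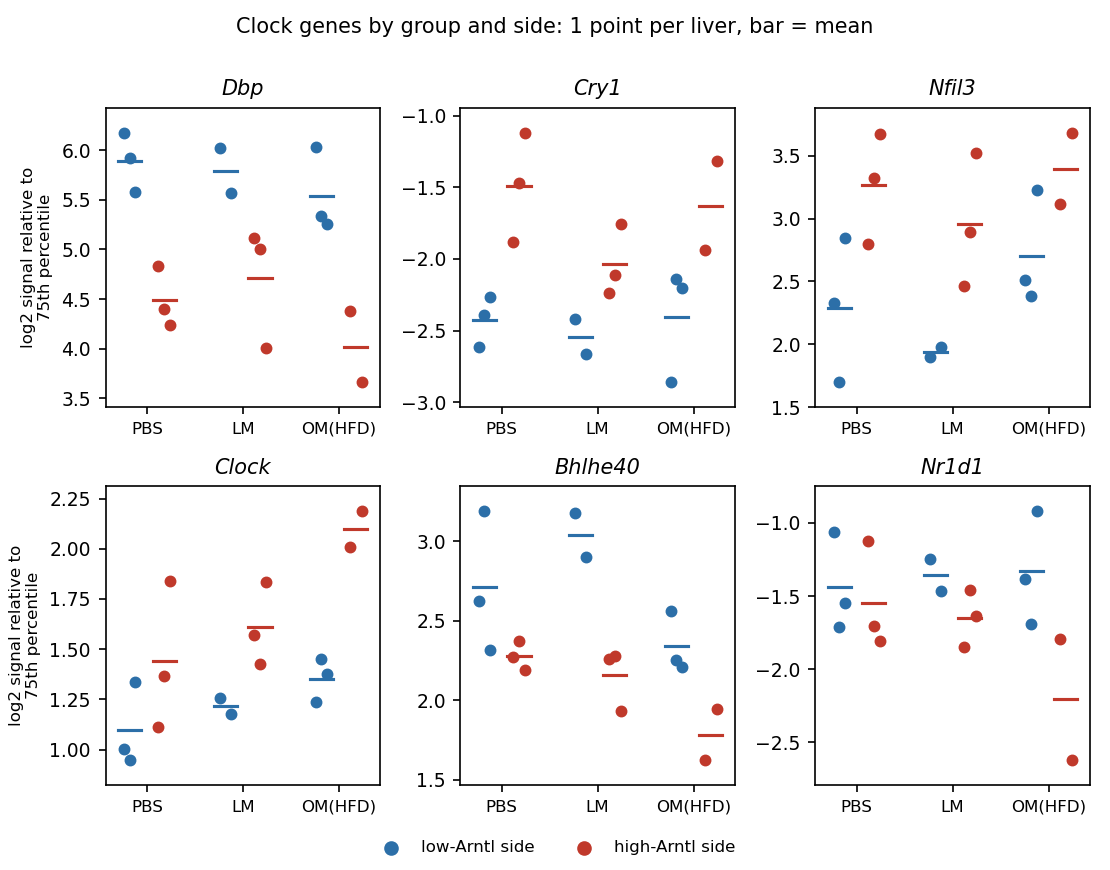
Levels of 6 clock genes (y axes, log2 signal relative to the 75th percentile) by inoculation group (x axes), 1 point per liver, coloured by side with bars at the means. Dbp is lower on the high-Arntl side in every group with no overlap, Cry1 is higher in every group, and Nr1d1 overlaps in Conv + PBS mice.

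Of 28 listed clock output genes, 1 was called higher and 1 lower, against 1.12% and 0.902% of all genes, and 10 were higher and 2 lower at an unadjusted limma p under 0.05, a threshold that 11.1% and 8.43% of all genes passed. These numbers were 9 and 2 with the slide as a block, and without mice 1 and 25 they were 9 and 3. Elovl3, a fatty acid elongase with a daily rhythm in liver, ranged from 2.94 to 3.75 on the low side (median 3.12) and from 3.98 to 5.65 on the high side (median 4.28). The sides did not overlap, and the difference was 1.34 with a standard error of 0.21, or 2.54-fold (limma adjusted p = 0.0255, exact permutation p = 0.0005). Cyp7a1, the rate-limiting enzyme of bile acid synthesis, ranged from 2.54 to 4.02 on the low side (median 3.20) and from 0.67 to 3.05 on the high side (median 1.84). It was lower in all 3 groups, by -1.38 with a standard error of 0.31, or 2.6-fold (limma adjusted p = 0.0388, exact permutation p = 0.0015).

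The list of fasting genes holds targets of PPARα, the nuclear receptor that turns on fat burning in fasted liver. Of 26 genes, all of them tested, 6 were called higher and 0 lower, 22 were higher and 0 lower at an unadjusted limma p under 0.05, and the median difference was 0.46 against 0.03 over all genes tested. Of all genes 1.12% were called higher, and 11.1% were higher and 8.43% lower at the unadjusted threshold. At that p 19 were higher and 0 lower with the slide as a block, with a median of 0.44. The median was 0.47 within slide 1 and 0.36 within slide 2, 0.40 to 0.51 with any 1 mouse left out, and 0.38 without mice 1 and 25.

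Pdk4, which blocks glucose oxidation by phosphorylating pyruvate dehydrogenase, ranged from -1.63 to 1.39 on the low side (median -0.80) and from 0.04 to 4.22 on the high side (median 3.07). Every high-side mouse lay above the low-side mice of its own group, and the difference was 2.98 with a standard error of 0.58, or 7.91-fold (limma adjusted p = 0.0345, exact permutation p = 0.0015). Plin5, a lipid droplet protein, ranged from 4.86 to 6.03 on the low side and from 6.06 to 6.99 on the high side, with no overlap. Its difference was 1.12 with a standard error of 0.17 (limma adjusted p = 0.0255).

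Acot1, an acyl-CoA thioesterase, differed by 1.73 (standard error 0.36, limma adjusted p = 0.0351), and Ehhadh, an enzyme of peroxisomal fat oxidation, by 1.18 (standard error 0.26, adjusted p = 0.038). Cyp4a14, a cytochrome of fatty acid oxidation, was also called higher, at 2.34 (adjusted p = 0.0402). Fgf21, the fasting hormone of the liver, missed the threshold at 1.1 (limma adjusted p = 0.0529). Cpt1a, which admits fatty acids to mitochondria, differed by 0.11 (limma adjusted p = 0.486). Members outside the rule for named genes were chosen after their values were seen.

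**Figure D4:**
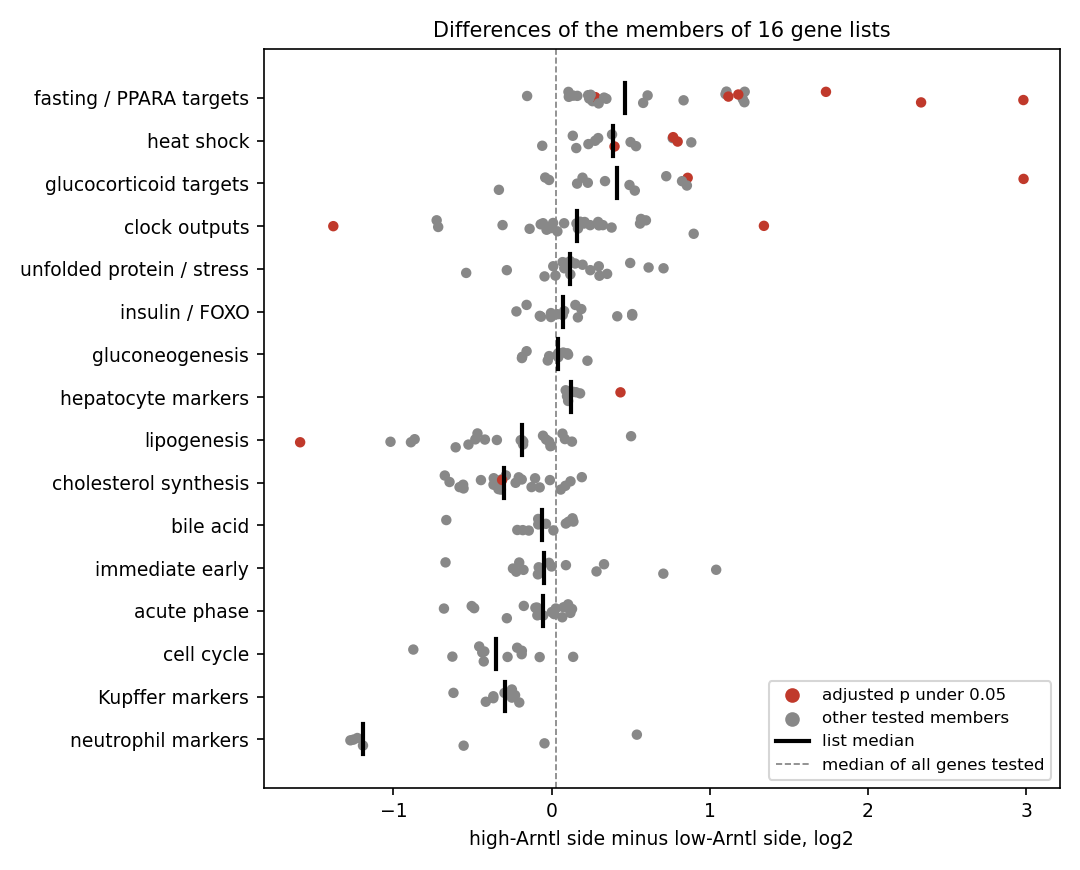
Differences between the sides (x axis, log2) of the tested members of 16 gene lists, 1 point per gene, red where the limma adjusted p is under 0.05, with the list median as a black bar and the median of all genes as a dashed line. The fasting and heat shock lists lie almost wholly above 0, and the cholesterol list mostly below.

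In the heat shock list, 3 of 14 genes were called higher and 0 lower, and 12 were higher and 0 lower at an unadjusted limma p under 0.05, with a median difference of 0.39. Over all genes 1.12% were called higher, and 11.1% at the unadjusted threshold. Hsph1 and Dnaja1 are chaperone and co-chaperone, and Hspb1 is a small heat shock protein. Hsph1, whose promoter window is printed above, ranged from 2.45 to 3.68 on the low side (median 3.11) and from 3.03 to 4.31 on the high side (median 3.88). Its difference was 0.80 with a standard error of 0.18, or 1.74-fold (limma adjusted p = 0.0385, exact permutation p = 0.003), with 0.71 to 0.80 over its 3 probes.

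Dnaja1 differed by 0.40 and Hspb1 by 0.77 (limma adjusted p = 0.0351 for each). The inducible Hspa1a and Hspa1b, near-identical genes that a probe may not tell apart, differed by 0.88 and 0.77 (adjusted p = 0.15 and 0.149). With the slide as a block 11 of the 14 were higher at an unadjusted p under 0.05, and without mice 1 and 25 the number was 8, with a median of 0.28.

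Cirbp, the cold-inducible RNA-binding protein, whose transcript is lowered by warmth, was the lower member of the cold-inducible list. It ranged from 1.67 to 2.45 on the low side (median 2.13) and from 0.69 to 2.0 on the high side (median 1.35). The difference was -0.76 with a standard error of 0.17, or 1.7-fold lower (limma adjusted p = 0.0385, exact permutation p = 0.0025). Of the other Cirbp probes, the brighter differed by 0.09 and the dimmest by -0.71, so the probes disagreed. The mean of all gave a Cirbp difference of -0.46 (limma adjusted p = 0.0578). Rbm3, the other gene of that list, differed by -0.05 (adjusted p = 0.78).

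Of 14 glucocorticoid targets, 2 were called higher and 0 lower, and 7 were higher and 0 lower at an unadjusted limma p under 0.05, with a median of 0.42. Over all genes these shares were 1.12% and 11.1% for higher genes. Both with the slide as a block and without mice 1 and 25, 8 were higher and 0 lower at the unadjusted threshold. Cdkn1a encodes the cell cycle inhibitor p21. It ranged from -3.14 to 0.51 on the low side (median -0.16) and from 0.89 to 3.53 on the high side (median 2.13). The sides did not overlap, and the difference was 2.98 with a standard error of 0.48, or 7.91-fold (limma adjusted p = 0.0255, exact permutation p = 0.0005). Fkbp5, a co-chaperone of the glucocorticoid receptor, ranged from 3.56 to 4.76 on the low side and from 4.62 to 5.55 on the high side, a difference of 0.86 (limma adjusted p = 0.0354), and the mean of its probes gave a Fkbp5 difference of 0.57 (limma adjusted p = 0.128). Tsc22d3, another established target, differed by -0.04 and Sgk1 by -0.33 (adjusted p = 0.941 and 0.327).

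**Figure D5:**
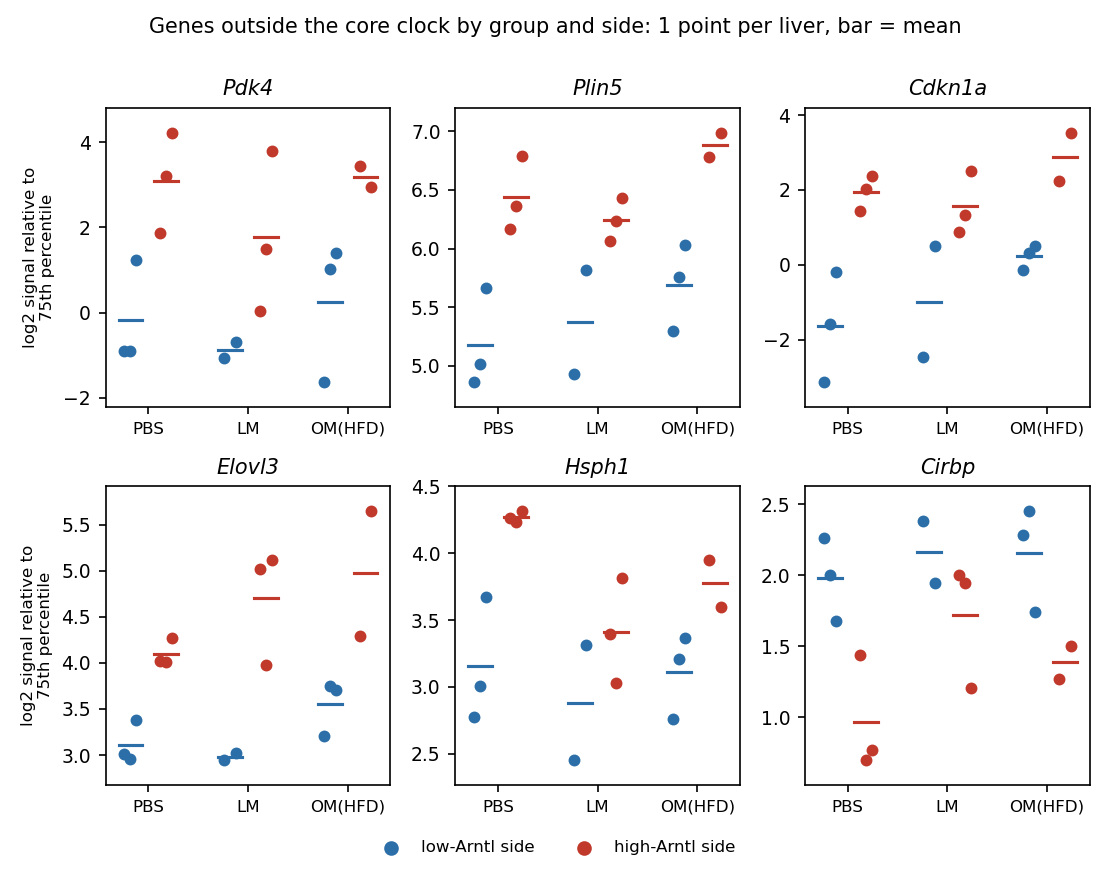
Levels of 6 genes outside the core clock (y axes, log2 signal relative to the 75th percentile) by inoculation group (x axes), 1 point per liver, coloured by side with bars at the means. Plin5, Cdkn1a and Elovl3 do not overlap between the sides over all 16 mice, and Cirbp is lower on the high-Arntl side.

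Genes of lipid synthesis lay mostly below 0. Of 23 lipogenic genes, 1 was called lower and 0 higher, and 11 were lower and 1 higher at an unadjusted limma p under 0.05, with a median of -0.19. Over all genes 0.902% were called lower, and 8.43% at the unadjusted threshold. The called gene was Pnpla5, a lipase-family protein placed in this list, which was well above background in 4 of 8 high-side and 8 of 8 low-side mice. It ranged from -3.81 to -2.04 on the low side and from -5.90 to -3.17 on the high side, and since dim spots set the high side no size is given. It met the filter on dim probes through the low side, and without that filter its limma adjusted p was 0.0922. Srebf1, the lipogenic transcription factor, and Fasn, the fatty acid synthase, differed by -0.87 and -0.61 (adjusted p = 0.0936 and 0.193). With the slide as a block 4 of the 23 were lower and 1 higher at the unadjusted threshold, and without mice 1 and 25 these numbers were 9 and 1. With any 1 mouse left out, 5 to 12 were lower and 1 higher.

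Of 24 genes of cholesterol synthesis and uptake, 1 was called lower and 0 higher, and 12 were lower and 0 higher at an unadjusted p under 0.05, with a median of -0.30. Over all genes 0.902% were called lower, and 8.43% at the unadjusted threshold. At that threshold 9 were lower and 0 higher with the slide as a block, and without mice 1 and 25 these numbers were 8 and 0. Sc5d, a sterol desaturase, differed by -0.31 with a standard error of 0.07 (limma adjusted p = 0.038), and its dimmer probe differed by -0.15.

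The lists of gluconeogenesis, insulin and FOXO targets, the unfolded protein and integrated stress response, immediate early genes, bile acid genes, acute phase genes and the cell cycle held no called member in the limma comparison of the sides. Cyp7a1 was listed with the clock outputs and Cenpe in no list, so neither counts here. Their medians were 0.04, 0.07, 0.12, -0.05, -0.06, -0.05 and -0.35. With the slide as a block, after normexp or quantile normalization and on the authors' values, they ran from -0.06 to 0.07, 0.04 to 0.13, 0.03 to 0.10, -0.10 to 0.01, -0.11 to -0.07, -0.11 to -0.04 and -0.41 to -0.08. Those of gluconeogenesis and immediate early genes thus changed sign in these settings. Without mice 1 and 25 the acute phase median was 0.15, with 2 members higher and 0 lower at an unadjusted p under 0.05. The immediate early median was then 0.06, and the other medians kept their sign. With any 1 mouse left out the acute phase median ran from -0.13 to 0.08 and that of bile acid genes from -0.09 to 0.02. The summed acute phase level was 6715 in low-side Conv + OM(HFD) mouse 25, against 3198 to 4185 in the other mice. In the lists other than that of insulin and FOXO targets, Fbp1, Trib3, Egr1, Nr0b2, Hp and Top2a had the smallest p. The differences of Fbp1, Trib3, Egr1, Nr0b2 and Hp were 0.10, -0.54, -0.67, -0.67 and 0.13 (limma adjusted p = 0.251, 0.124, 0.0806, 0.118 and 0.378). Top2a was well above background in 2 high-side and 7 low-side mice and met the filter on dim probes through the low side. No size is given for it, and it is among the 3 lower cell cycle members counted next. At an unadjusted p under 0.05, counts of higher and lower members were 1 and 1 of 12, 3 and 0 of 15, 5 and 1 of 19, 3 and 1 of 14, 1 and 2 of 12, 0 and 0 of 17, and 0 and 3 of 12, where 11.1% of all genes were higher and 8.43% lower. With Arntl as a number, limma adjusted calls rising and falling were, in the same order, 0 and 0, 2 and 0, 0 and 1, 2 and 1, 0 and 0, 0 and 0, and 0 and 2. In that fit 4.51% of all genes were called as rising and 3.9% as falling. Pck1 and G6pc, the genes of PEPCK and glucose-6-phosphatase, differed by 0.04 and -0.19 (adjusted p = 0.844 and 0.487).

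Tacc2, a centrosomal protein, ranged from 1.75 to 2.85 on the low side and from 2.44 to 4.08 on the high side. Its difference was 1.26 with a standard error of 0.17, and 1.40 with the slide as a block (limma adjusted p = 0.0255 and 0.0488). Tars, a threonyl-tRNA synthetase, and Sdc4, the heparan sulfate proteoglycan syndecan-4, differed by 0.46 and 0.47 with standard errors of 0.07 each, and Tars did not overlap between the sides. Dlg4, a scaffold protein best known from synapses, was well above background in 8 high-side and 4 low-side mice, and Arhgap20os, an antisense transcript, in 6 high-side mice and 1 low-side mouse. Both met the filter on dim probes through the high side, so no size is given for them, and without that filter their limma adjusted p was 0.084 each.

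Among the lower genes, Ogt, the enzyme that attaches O-GlcNAc to proteins, ranged from 0.33 to 0.88 on the low side and from -0.22 to 0.34 on the high side, a difference of -0.51 with a standard error of 0.08 (limma adjusted p = 0.0255). Its dimmer probes differed by -0.10 and -0.16, and the mean of all gave an Ogt difference of -0.25 (limma adjusted p = 0.161). Gsap, the γ-secretase activating protein, and Blnk, an adaptor of B cell receptor signalling, differed by -0.93 and -0.94, and the other probe of Gsap by -0.28. After normexp background correction the Gsap difference was -0.53 (limma adjusted p = 0.0112). Krt18, a keratin of hepatocytes and bile ducts, Ngef, a guanine nucleotide exchange factor, and Clic5, a chloride intracellular channel protein, differed by -0.42, -0.47 and -0.82. The other probe of Clic5, of similar brightness, differed by 0.23, so its probes disagreed, and after normexp background correction the Clic5 difference was -0.17 (limma adjusted p = 0.145). Cenpe, a kinetochore motor, was not well above background in any high-side mouse and was in 6 of 8 low-side mice, which sets it at least 1.68-fold lower on the high side (side means of -4.73 and -3.81). This bound sets the low-side mean against, on each high-side array, the higher of its own signal and the dimmest signal well above background. Cenpe met the filter on dim probes through the low side, and without that filter its limma adjusted p was 0.084. After normexp background correction the Cenpe difference was -0.10 (limma adjusted p = 0.402).

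In whole liver, fewer cells of a type and less RNA per cell cannot be told apart. All 8 hepatocyte markers tested were well above background on every array and had differences of 0.09 to 0.44, with Hnf4a, a master regulator of hepatocytes, called higher at 0.44 (limma adjusted p = 0.0351) and at 0.24 by its dimmer probe. The hepatocyte median of 0.12 was 0.00 after quantile normalization and on the authors' values. Pericentral and periportal genes had medians of 0.05 and 0.05, which were negative under the same 2 scalings, and 0 were called between the sides. Their members with the smallest p were Lgr5 at -0.81 and Hal at -0.36 (limma adjusted p = 0.137 and 0.099), and by their dimmer probes -1.42 and -0.25. With Arntl as a number, 1 of 11 pericentral genes, Lgr5, was called as falling (limma adjusted p = 0.00615). In the same fit 1 of 11 periportal genes was called as rising. Of all genes 4.51% were called as rising and 3.9% as falling in it.

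Of 7 neutrophil markers tested, 0 were called, with a median of -1.19 that was 0.02 without Conv + PBS mouse 1 and Conv + OM(HFD) mouse 25. Their summed level was 1.70 to 23.2 on the low side and 1.76 to 2.53 on the high side. The 9 Kupffer cell markers had a median of -0.30, and 0.05 without these mice, and their summed level was 20.8 to 145 on the low side and 23.8 to 38.5 on the high side. Without both mice Dbp differed by -1.20, Cry1 by 0.64, Pdk4 by 2.56, Cdkn1a by 2.63 and Hsph1 by 0.66 on the log2 scale.

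Markers of red blood cells, stellate cells, endothelium, bile ducts, lymphocytes, pancreas, fat and muscle held 0 called members in the limma comparison of the sides. Of 8, 9, 9, 6, 7, 4, 4 and 2 tested members, 0, 1, 0, 1, 0, 0, 0 and 0 were higher and 0, 0, 0, 0, 1, 0, 1 and 0 lower at an unadjusted p under 0.05, which 11.1% and 8.43% of all genes passed. The members with the smallest p were Ahsp, Lrat, Gpr182, Sox9, Cd79b, Cel, Adig and Tnnt3. In the Kupffer and neutrophil lists they were Timd4 (-0.62) and Mpo (-1.23), of which Mpo was well above background in 5 high-side and 7 low-side mice. The Timd4 difference was -0.34 without Conv + PBS mouse 1, the Mpo difference was -0.80 without Conv + OM(HFD) mouse 25, and without both mice they were -0.26 and -0.41. Ahsp was well above background in 5 high-side mice and 1 low-side mouse. It met the filter on dim probes through the high side, so no size is given for it. With Arntl as a number, Sox9 rose and Cd79b fell (limma adjusted p = 0.0371 and 0.0476). In that fit 4.51% of all genes were called as rising and 3.9% as falling. Summed levels on the low and high sides were 336 to 1037 and 527 to 1107 for red cells, 5.76 to 7.81 and 5.98 to 8.56 for pancreas, 0.793 to 1.09 and 0.713 to 1.58 for fat and 0.126 to 0.258 and 0.125 to 0.209 for muscle. Of the pancreas markers 6 were not above background on any array, as were 3 muscle and 2 lymphocyte markers. The part of these cells in the differences of the other genes was not tested beyond these values.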

How the data were processed

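Liver RNA of 16 mice was read on Agilent arrays. The authors extracted spots with Agilent Feature Extraction 10.10.1.1, and the deposited intensity values are background-subtracted brightness, not normalized between arrays. A deposited table of log2 values differed by at most 0.132 from log2 median brightness after quantile normalization. limma is also listed in the submitters' processing notes.

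Control spots and 1785 flagged spot values were left out, spots of a probe averaged, log2 taken and each array's 75th percentile subtracted. Probes well above background on at least 5 arrays were kept (30659 of 56605), and the probe with the highest mean stood for a gene. The number of arrays limits the precision. Gene names are those of the array design, of which 14631 are current symbols, 701 synonyms and 5067 neither, and positions are on mm9. Names were matched to RefSeq's table of GRCm38.p6.

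The sides were compared with limma 3.58.1 in R 4.3.3 (group and side as terms, Benjamini-Hochberg adjustment over 20399 genes without Arntl). A limma F test asked whether the side difference depended on the group. Exact two-sided permutation tests reassigned the sides within groups. data.table (version 1.17.8) read the arrays, and matplotlib 3.10.9 under Python 3.11.15 drew the plots. The fits were tested on simulated data.

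Named are Dbp, Npas2, Cry1 and Nr1d1, all clock genes above background, the 8 genes of smallest p higher and the 8 lower outside the lists of clock activators, clock repressors and PAR bZIP genes (unnamed models left out) and, per other list, up to 4 called members or else the one with the smallest p. Some genes that this rule names are not reported here. The members of the comparison, gene lists, tests and alternatives were chosen with earlier results of these data known. The alternatives are other background corrections, scalings, filters, probe rules, side definitions, terms and the methods' t-test, and each mouse was left out in turn. No paired analysis was possible because no mouse number occurs in more than 1 group.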

Additional observations from a re-analysis of the deposited data

Results flagged for a closer look

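Among 132 sets of 8 mice (66 named genes on each side, as deviations from the group mean), 9 held a mouse whose gap to the nearest other mouse was large against the range of the set, and chance flags about 1 in 20. On the high-Arntl side these were Conv + OM(HFD) mouse 30 for Nr1d2, at -0.52, Conv + PBS mouse 5 for Timeless, at 0.22, Conv + LM mouse 15 for Tacc2, at -0.24, and Conv + LM mouse 16 for Dnaja1, at -0.0195. On the low-Arntl side these were Conv + PBS mouse 3 for Clock, at 0.0679, and for Tnnt3, at 0.68, Conv + PBS mouse 1 for Timd4, at 2.02, and for Sox9, at -1.38, and Conv + OM(HFD) mouse 25 for Ahsp, at 2.79. Mice 3 and 16 are the mice nearest to the division by Arntl, and mice 1 and 25 are those with high neutrophil transcripts. No gene had an adjusted p under 0.05 for a difference between groups in the effect of the side in limma (468 at an unadjusted p under 0.05).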

How the results depend on the processing

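Over all alternatives and reported values, 1518 values kept their direction and side of the threshold, 446 lost the threshold, 19 passed it anew and 23 changed sign. The counts of genes higher and lower on the high-Arntl side (228 and 184) were 151 and 165 after quantile normalization, 0 and 1 without a filter on dim probes, 1 and 2 with the slide as a block, and 0 and 0 without a term for the group. They were 421 and 403 with array weights, 920 and 796 with Arntl as a number, 7 and 2 with sides from the mean of the Arntl probes, and 0 and 0 after Benjamini-Hochberg adjustment by the methods' t-test (2170 and 1458 unadjusted). Of 2 alternatives chosen after seeing the data, Arntl as a number with the slide as a block gave 635 and 545, and leaving out both mice with high neutrophil transcripts gave 0 and 0. Without 1 mouse the counts ranged from 0 to 279 higher and from 0 to 285 lower, and the genes whose difference depended on the group from 0 to 8, with 1 such gene when no filter was applied. The causes were not tested. No paired analysis was possible because no mouse number occurs in more than 1 group.

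The values that changed sign were all of genes that were not called. With Arntl as a number they were the Hlf difference (0.0345) and the Tnnt3 difference (0.0670), and with the slide as a block as well 0.0417 and 0.0766 for the same genes. With sides from the mean of the Arntl probes they were the Csnk1e difference (-0.00386), the Hlf difference (0.0274) and the Tnnt3 difference (0.0339). On the authors' values they were the Hp difference (-0.00604), the Fbp1 difference (-0.0509) and the Csnk1d difference (-0.0512), after quantile normalization the Csnk1d difference (-0.0136) and the Fbp1 difference (-0.0240), with the mean of a gene's probes the Csnk1d difference (-0.122), and with normexp the Tnnt3 difference (0.0437). With 1 mouse left out Hlf ranged from -0.100 to 0.0349, Tnnt3 from -0.155 to 0.0389 and the Nr1d2 difference from -0.134 to 0.0273.

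The sides rest on 1 probe of the same arrays, 8 mice stand on each side, the slides are unequally spread over the sides, and the time of death was not given. Arhgap20os, Dlg4, Pnpla5, Top2a and Ahsp, well above background on few arrays of a side, are given no size, and Cenpe a bound only.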
